A study of Mus musculus with 120 samples.

Results

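The 35 genes described here form a group fixed by name, the macrophage, complement and antigen presentation genes. All 35 have a row among the 53656 genes of both expected count tables, 1 table for soleus, a slow postural muscle of the lower leg, and 1 for heart. They were read by strain, treatment and tissue in 96 mRNA libraries, 48 per tissue, in 16 groups of 6 mice. The mice carried the C57BL/6Eij (Nnt+/+) background and 1 of 4 mutations. ND5S204F (ND5), ND6P25L (ND6) and CO1V421A (CO1) are missense changes in mitochondrial DNA (mtDNA), at m.12352, m.13997 and m.6589. ND5 and ND6 are subunits of respiratory complex I, and CO1 is a subunit of complex IV. ANT1-/- (ANT1) mice lack Slc25a4, the adenine nucleotide translocator of heart and muscle mitochondria. In each strain mice were trained from 16 weeks of age (50% of maximal running capacity, 45 min on alternate days, for 8 weeks) or were only handled, and tissue was collected 6 days after the last session. Trained mice are called exercised in the labels, and handled mice, here "at rest", non-exercised. The libraries of the control strain, B6, are not analysed here, so every strain comparison is between mutants. ANT1 was set against the equally weighted mean of ND5, ND6 and CO1.

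Macrophages live in all muscle and heart, where they clear debris and, after injury, guide repair. Resident cells of long standing carry the mannose receptor CD206 (Mrc1) and the haemoglobin scavenger receptor Cd163, and monocytes that enter from blood carry the chemokine receptor Ccr2. The growth factor receptor Csf1r keeps macrophages alive. C1q opens the classical complement pathway and is made largely by macrophages, whereas C3, the protein on which all complement pathways meet, is also made by other cells. Class II molecules of the major histocompatibility complex display peptides to helper T cells. In bulk tissue, fewer cells of a type and less RNA per cell cannot be told apart.

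Totals per library ran from 10.2 to 20.7 M counts in soleus (mean 14.7) and from 19.7 to 26.5 M in heart (mean 23.1). Slc25a4, the targeted gene, lay between 4.96 and 22.1 CPM (counts brought to a common library size, with totals scaled by the trimmed mean of M values, TMM) in ANT1 soleus and between 2170 and 4021 in the other strains. In heart it lay between 1.89 and 6.12 CPM in ANT1 and between 471 and 3892 elsewhere. The library at 470.7 CPM was ND5 mouse B80, which the labels call non-exercised in heart and exercised in soleus. No 2 libraries of a group were alike within counting noise. Of the markers that define other blood cells, the 10 neutrophil genes and the 10 genes of T and NK cells were too low to be tested in soleus. Markers of blood cells were high in soleus B69 (ND5, exercised), described further down, and in heart B11 (ND5, exercised), where 8 B cell genes summed to 522.6 CPM and the 10 neutrophil genes to 169.5 CPM. In other hearts these sums reached at most 107.5 and 32.3 CPM.

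Per unit of length, in the deposited FPKM (fragment counts scaled by gene length and library), the members spanned a wide range in soleus. The median over 48 libraries was highest for Lyz2, lysozyme M of macrophages and granulocytes, at 43.3 FPKM. Next came the class II genes, with Cd74, the invariant chain, at 28.9, H2-Aa at 16.9, H2-Eb1 at 13.6 and H2-Ab1 at 12.99 FPKM. C1qa followed at 12.1 FPKM, and the last places went to Ccl2 (0.20), Fcgr1 (0.18) and Cx3cr1 (0.10). H2-Eb1 and H2-Ab1 ranged over libraries far more widely than the gap between them, as did Cd68 and Ctss, which shared a median of 6.19 FPKM. In heart the order began with Lyz2 at 101.0, Cd74 at 57.7, C3 at 47.7 and C1qa at 36.0 FPKM. C3 was the third in heart but the sixteenth in soleus (3.33 FPKM).

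At rest, the members as a group were lower in ANT1 soleus than in the mean of the mtDNA strains. Summed over all 35, ANT1 libraries at rest held 83.2 to 187.2 CPM (median 138.9), ND5 264.3 to 774.3 (477.2), ND6 77.98 to 320.6 (228.8) and CO1 155.2 to 470.6 (210.4). ANT1 was the lowest strain by median and ND5 the highest, with ND6 and CO1 overlapping over most of their range. Of 34 members tested, 28 were lower in ANT1 at an adjusted p under 0.05 by edgeR's quasi-likelihood test, against 25.4% of all genes tested. C3 was the 1 member that was higher, against 22.4% of all genes, though not when libraries were scaled by their totals. The median log2 difference was -1.23 over the members and -0.04 over all genes. These values depend on the scaling. Scaled by library totals without TMM, an alternative added after the values were seen, the median of all genes in ANT1 moved to -0.69 and that of the members to -1.91. In that fit 32 members were lower and 0 higher, among all genes 11578 lower (83.1%) and 381 higher where TMM gave 3533 and 3120. Library totals include mtDNA-encoded genes, which held 35.812 to 47.586% of counts in ANT1 soleus at rest. In the mtDNA strains at rest they held 12.871 to 23.018%. With these genes left out before TMM scaling, the result of all 34 members was classed as the same as in the main fit. The part of mtDNA-encoded counts in the difference between the scalings was not tested. Fold changes below are on the TMM scale, on which the median gene stays near 0, and each is thus a difference relative to most other genes. Ccl2, the monocyte attractant, had too few counts to be tested in soleus (0 to 0.21 CPM in ANT1 at rest, 0 to 1.14 CPM in the mtDNA strains at rest).

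**Figure D1:**
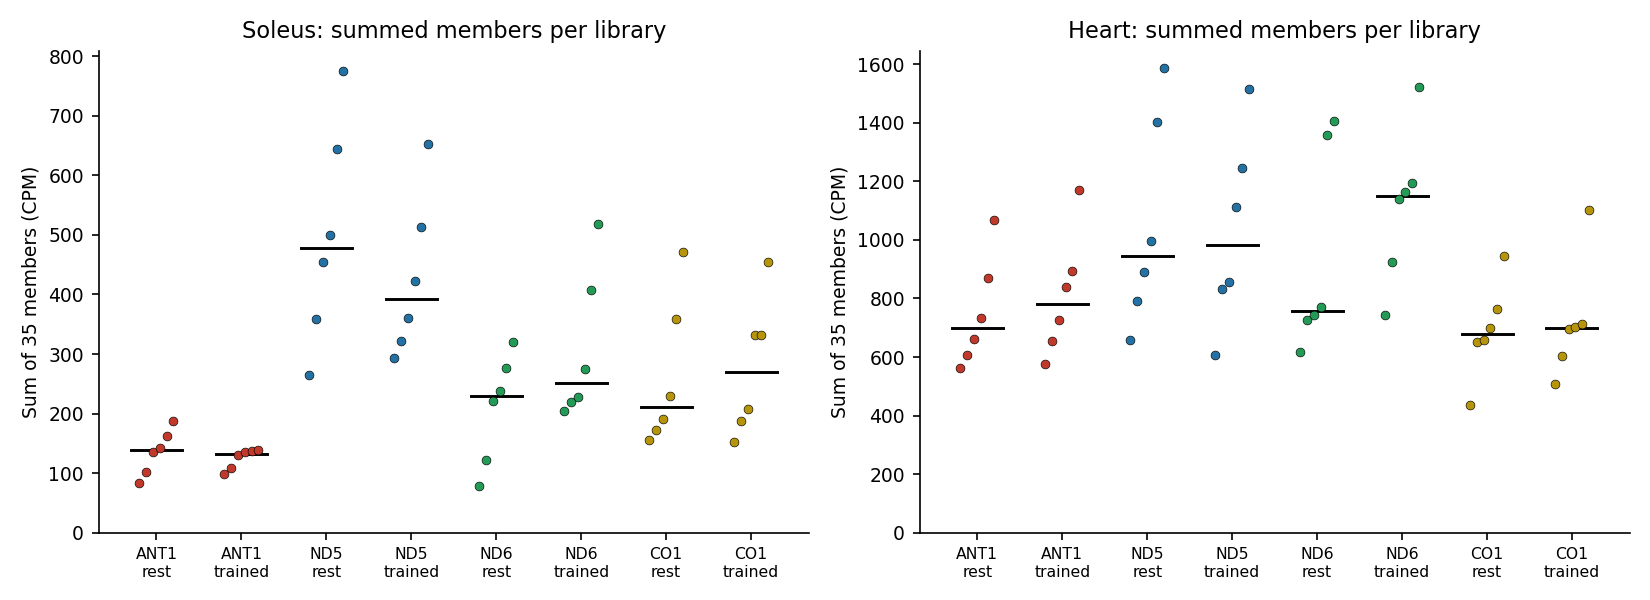
Sum of the 35 members in CPM (linear axes from 0) for each library, by strain and treatment, in soleus (left) and heart (right), with a line at each group median. In soleus the ANT1 medians, 138.9 at rest and 132.7 trained, lie below those of the other strains, and in heart the ranges of all groups overlap.

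The 4 class II genes were lower in ANT1 by nearly the same amount. They encode the chains that form peptide-binding class II molecules (H2-Aa, H2-Ab1, H2-Eb1) and the chaperone that guides them to endosomes (Cd74). H2-Aa, H2-Ab1 and H2-Eb1 lie together on chromosome 17, H2-Aa at 34282744 to 34287823 on the minus strand, H2-Ab1 at 34257689 to 34269419 and H2-Eb1 at 34305867 to 34316674 on the plus strand (build GRCm38). These genes are known to be switched on together by the activator CIITA, which acts through a shared promoter module that includes the Y box. The Y box was searched as CTGATTGG on both strands in the RefSeq promoter windows of build GRCm38.p6 (250 bases before to 50 after each gene start), which hold 25 of the 35 members. H2-Aa and H2-Eb1 are printed because they are the 2 class II members with these letters. Below are the 250 bases before each start, 5′ to 3′ along the gene's own strand, with the Y box in capitals.
H2-Aa, chr17:34287824-34288073, minus strand: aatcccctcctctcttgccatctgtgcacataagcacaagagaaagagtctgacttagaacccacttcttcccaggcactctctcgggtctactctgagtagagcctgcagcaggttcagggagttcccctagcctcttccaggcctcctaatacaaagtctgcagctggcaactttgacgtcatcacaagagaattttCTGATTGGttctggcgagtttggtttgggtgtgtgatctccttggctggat
H2-Eb1, chr17:34305617-34305866, plus strand: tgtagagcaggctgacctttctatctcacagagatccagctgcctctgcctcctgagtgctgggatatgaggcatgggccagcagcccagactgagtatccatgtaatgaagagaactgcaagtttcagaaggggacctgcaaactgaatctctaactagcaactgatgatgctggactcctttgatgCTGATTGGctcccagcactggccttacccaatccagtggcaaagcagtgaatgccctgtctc
The match begins 51 bases before the start of H2-Aa and 62 bases before that of H2-Eb1. Among the 25 members with a window, these were the only 2 that held it, and 4.31% of all 27025 windows did. CCAAT, whose reverse complement is part of the Y box, was in 10 of the 25 members' windows and in 37.9% of all windows.

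In soleus at rest, ANT1 libraries held 6.27 to 12.4 CPM (median 9.12) and mtDNA-strain libraries 8.83 to 86.8 CPM (median 32.6) for Cd74. Every ANT1 library lay below the median of the others, and only ND6 I95 among 18 mtDNA-strain libraries was lower than the highest ANT1 library. The log2 difference was -1.9 ± 0.33, adjusted p = 6.23e-06. ANT1 libraries held 3.08 to 5.82 CPM (median 5.11) and mtDNA-strain libraries 4.79 to 51.7 CPM (median 17.9) for H2-Aa, and its log2 difference was -1.98 ± 0.36, adjusted p = 1.75e-05. For H2-Ab1, ANT1 libraries held 1.95 to 5.51 CPM (median 4.05) and mtDNA-strain libraries 3.31 to 41.6 CPM (median 14.5), and for H2-Eb1, ANT1 libraries held 3.62 to 5.82 CPM (median 3.81) and mtDNA-strain libraries 3.13 to 43.8 CPM (median 15.1). Their log2 differences were -1.93 ± 0.38, adjusted p = 4.71e-05 and -1.87 ± 0.35, adjusted p = 2.44e-05. For all 4 genes the libraries that reached into the ANT1 range were few, ND6 I95 and I18 and CO1 E53 at most. ND6 I95 and I18 were low for most other members too.

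Of the 9 genes that mark macrophages or leukocytes, or that keep them alive, 7 were lower in ANT1 at rest. ANT1 libraries held 12.8 to 41.5 CPM (median 22.2) and mtDNA-strain libraries 13.2 to 172 CPM (median 53.5) for Lyz2, the member with the highest level of the group, a log2 difference of -1.28 ± 0.32, adjusted p = 0.000846. The 2 ranges overlapped at their low ends. ANT1 libraries held 4.32 to 10.1 CPM (median 6.03) and mtDNA-strain libraries 3.31 to 29.6 CPM (median 12.4) for the receptor gene Csf1r (-0.97 ± 0.24, adjusted p = 0.00089). Adgre1, the F4/80 antigen of macrophages, had 0.416 to 2.39 CPM (median 0.721) in ANT1 and 0.874 to 8.62 CPM (median 2.38) in the mtDNA strains and a log2 difference of -1.64 ± 0.36, adjusted p = 0.000212. Mrc1 had 2.78 to 7.79 CPM (median 5.21) in ANT1 and 2.35 to 24.6 CPM (median 9.07) in the mtDNA strains (-0.99 ± 0.26, adjusted p = 0.00192). For each of Lyz2, Csf1r, Adgre1 and Mrc1 the lowest mtDNA-strain library was ND6 I95, within or below the ANT1 range. Ptprc, the CD45 phosphatase of all leukocytes, had 0.514 to 1.97 CPM (median 1.31) in ANT1 and 1.13 to 9.99 CPM (median 2.98) in the mtDNA strains, a log2 difference of -1.43 ± 0.35, adjusted p = 0.000776. Laptm5, a lysosomal protein of blood cells, had 1.65 to 3.04 CPM (median 2.25) in ANT1 and 1.75 to 21.6 CPM (median 5.61) in the mtDNA strains, a difference of -1.55 ± 0.32, adjusted p = 0.000108. Spi1, the transcription factor PU.1, had 0.371 to 0.929 CPM (median 0.554) in ANT1 and 0.356 to 3.77 CPM (median 1.24) in the mtDNA strains, a difference of -1.09 ± 0.41, adjusted p = 0.0269. Spi1 kept its call when most single libraries were left out but lost it without ANT1 A18, A4, A75 or A88. Cd68, a lysosomal glycoprotein, and Cd163 did not pass the test, at -0.46 ± 0.34, adjusted p = 0.261 and -0.28 ± 0.2, adjusted p = 0.248. Cd163 ranged from 3.34 to 11.4 CPM in ANT1 and from 2.81 to 12.4 CPM in the mtDNA strains, almost the same span.

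The complement members divided. The 3 chains of C1q, whose genes lie side by side on chromosome 4, were lower in ANT1 at rest. ANT1 libraries held 2.16 to 12.99 CPM (median 5.39) and mtDNA-strain libraries 2.62 to 35.04 CPM (median 10.5) for C1qa (-0.98 ± 0.29, adjusted p = 0.00536). The highest ANT1 library, A82, stood at 12.99 CPM and the next at 5.74. C1qb had 2.37 to 8.103 CPM (median 5.03) in ANT1 and 2.25 to 32.3 CPM (median 8.87) in the mtDNA strains (-1.08 ± 0.27, adjusted p = 0.0011) and C1qc 1.85 to 9.04 CPM (median 4.28) in ANT1 and 2.71 to 26.2 CPM (median 9.43) in the mtDNA strains (-1.09 ± 0.27, adjusted p = 0.00088). The receptors for the fragments C3a and C5a, which draw and activate myeloid cells, were lower too. C3ar1 had 0.333 to 1.04 CPM (median 0.731) in ANT1 and 0.763 to 9.07 CPM (median 1.95) in the mtDNA strains (-1.72 ± 0.4, adjusted p = 0.000454), and C5ar1 had 0.185 to 0.935 CPM (median 0.553) in ANT1 and 0.276 to 2.83 CPM (median 1.22) in the mtDNA strains (-1.19 ± 0.41, adjusted p = 0.0153). C5ar1 lost its call without ANT1 A18. C3 itself went the other way: ANT1 libraries held 15.2 to 22.5 CPM (median 18.1) and mtDNA-strain libraries 4.42 to 23.9 CPM (median 11.8). Its log2 difference was 0.63 ± 0.22, adjusted p = 0.0179. The ANT1 libraries lay within the upper part of the mtDNA-strain range, not above it. The direction was the same with RLE size factors in edgeR (0.64), by DESeq2 (0.64) and with mtDNA-encoded genes left out before TMM scaling (0.65). It was not kept with library totals. Scaled by library totals the difference of C3 was -0.03 (all genes -0.69), and the medians of the deposited FPKM were 2.78 in ANT1 and 2.95 in the mtDNA strains.

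Of the 6 Fc and activating receptors and adaptors, 4 were lower. Cd14, the co-receptor for bacterial lipopolysaccharide, had 0.464 to 1.35 CPM (median 0.8896) in ANT1 and 0.661 to 4.65 CPM (median 1.604) in the mtDNA strains (-1.08 ± 0.32, adjusted p = 0.00453). Fcgr3, a low-affinity receptor for immunoglobulin G, had 0.823 to 3.01 CPM (median 2.35) in ANT1 and 0.552 to 11.01 CPM (median 3.52) in the mtDNA strains (-0.98 ± 0.3, adjusted p = 0.00591), and Fcer1g, the signalling chain it pairs with, had 0.411 to 1.77 CPM (median 1.05) in ANT1 and 0.414 to 6.45 CPM (median 1.65) in the mtDNA strains (-0.94 ± 0.37, adjusted p = 0.0318). Trem2, a lipid receptor of phagocytes, had 0 to 0.675 CPM (median 0.373) in ANT1 and 0.0728 to 4.91 CPM (median 0.832) in the mtDNA strains (-1.28 ± 0.53, adjusted p = 0.0433). With single libraries left out, the call of Trem2 was lost 11 times of 24 and that of Fcer1g 3 times. The adaptor Tyrobp, through which Trem2 signals, had 0.206 to 1.97 CPM (median 1.15) in ANT1 and 0.506 to 5.93 CPM (median 1.55) in the mtDNA strains and did not pass (-0.71 ± 0.39, adjusted p = 0.132), nor did Fcgr1, the high-affinity receptor, with 0 to 0.4503 CPM (median 0.294) in ANT1 and 0.117 to 2.26 CPM (median 0.404) in the mtDNA strains, a log2 difference of -0.74 ± 0.6, adjusted p = 0.315. Both integrin members were lower. Itgam and Itgb2 encode the 2 chains of Mac-1 (CD11b and CD18), which binds complement-coated targets. Itgam had 0.371 to 1.08 CPM (median 0.721) in ANT1 and 0.407 to 8.85 CPM (median 2.45) in the mtDNA strains (-1.84 ± 0.49, adjusted p = 0.00194), and Itgb2 had 0.649 to 1.66 CPM (median 0.882) in ANT1 and 0.6901 to 6.39 CPM (median 2.304) in the mtDNA strains (-1.26 ± 0.36, adjusted p = 0.00369). Libraries of the 2 sides overlapped for both.

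All 4 chemokine and receptor members with enough counts were lower. Ccr2, through which monocytes follow Ccl2, had 0.411 to 1.75 CPM (median 0.558) in ANT1 and 1.02 to 13.4 CPM (median 4.24) in the mtDNA strains, a log2 difference of -2.59 ± 0.56, adjusted p = 0.000184. Without its highest library, ANT1 would lie below all 18 others. Cx3cr1, the fractalkine receptor of patrolling monocytes and some resident macrophages, had 0 to 0.371 CPM (median 0.0838) in ANT1 and 0 to 4.21 CPM (median 0.368) in the mtDNA strains (-2.47 ± 0.83, adjusted p = 0.013), so that its difference rests on few counts. The myeloid chemokines Ccl6 and Ccl9 lie next to each other on chromosome 11. ANT1 libraries held 1.85 to 5.51 CPM (median 3.23) and mtDNA-strain libraries 1.66 to 19.1 CPM (median 8.08) for Ccl6 (-1.3 ± 0.37, adjusted p = 0.00381), while Ccl9 had 1.23 to 4.47 CPM (median 2.45) in ANT1 and 1.15 to 11.5 CPM (median 5.71) in the mtDNA strains (-1.21 ± 0.31, adjusted p = 0.00147). Of the phagocytic and lysosomal members, 2 of 3 were lower. Lgals3, galectin-3, had 1.201 to 3.53 CPM (median 2.77) in ANT1 and 1.52 to 21.7 CPM (median 6.13) in the mtDNA strains (-1.53 ± 0.45, adjusted p = 0.00437), and the protease cathepsin S, Ctss, which trims the invariant chain, had 1.34 to 9.12 CPM (median 2.86) in ANT1 and 1.66 to 35.3 CPM (median 7.36) in the mtDNA strains (-1.25 ± 0.4, adjusted p = 0.00872). Gpnmb, a glycoprotein of lipid-loaded macrophages and other cells, had 4.16 to 11.1 CPM (median 4.93) in ANT1 and 2.26 to 8.503 CPM (median 4.298) in the mtDNA strains and did not pass (0.44 ± 0.21, adjusted p = 0.0867, and -0.23 when scaled by library totals).

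**Figure D2:**
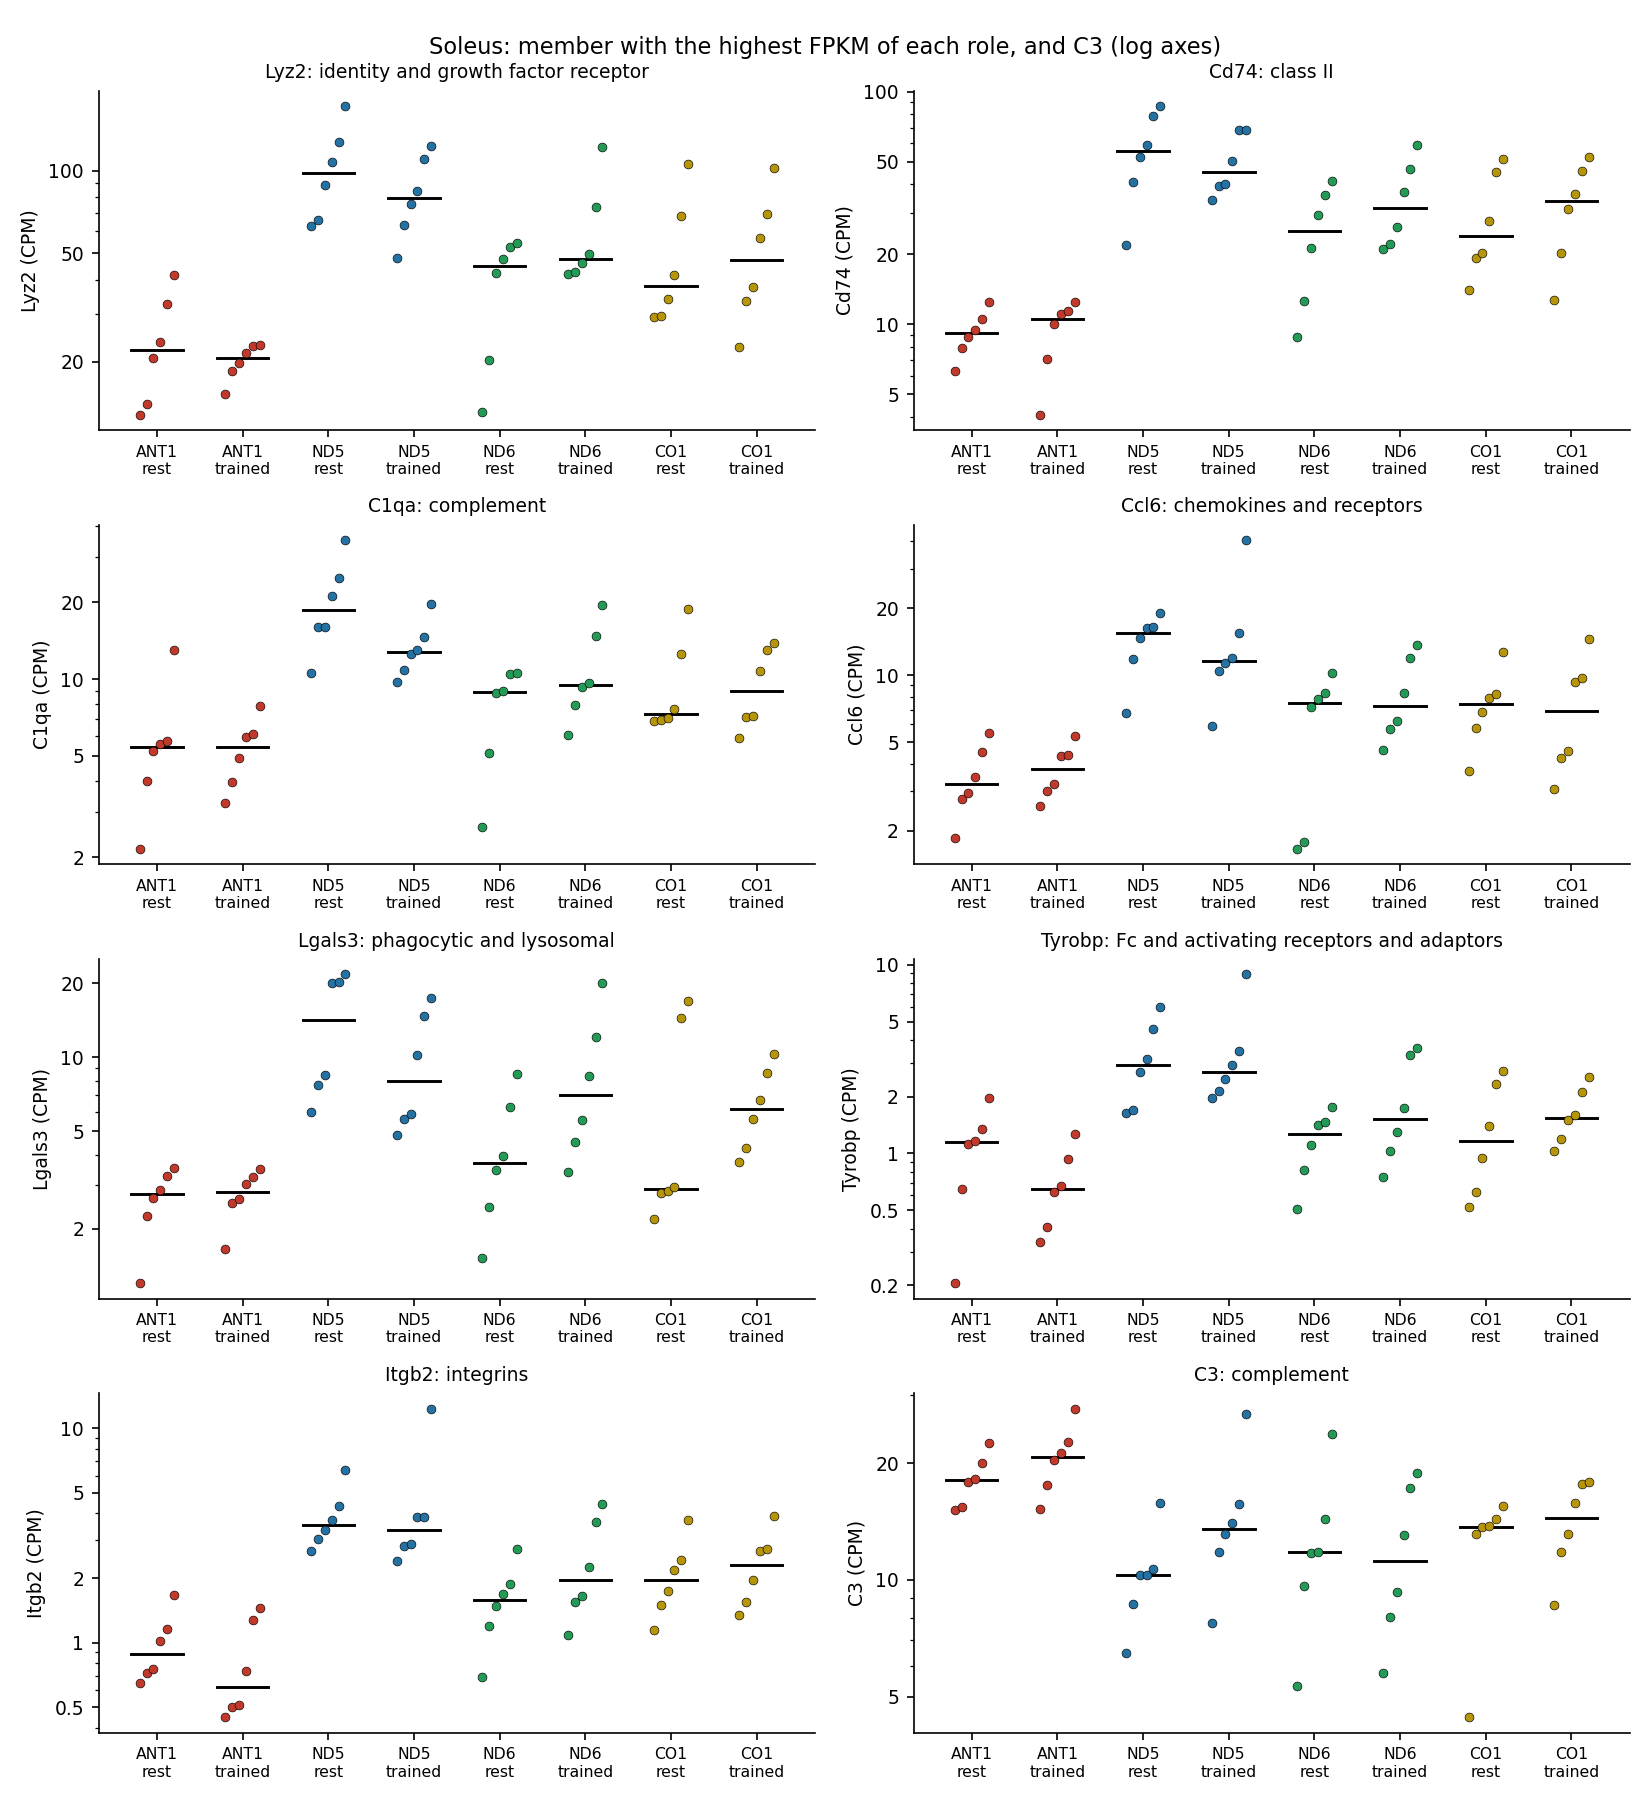
CPM on log axes in each soleus library for the member with the highest FPKM of each role, and for C3, by strain and treatment, with a line at each group median. ANT1 libraries tend to lie low and ND5 libraries high for 7 of the genes shown. At rest ANT1 overlaps the mtDNA strains for each of them, and Tyrobp was not called there. On this TMM scale, but not scaled by library totals, C3 is higher in ANT1, with medians of 18.1 at rest and 20.8 trained.

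How far ANT1 lay below depended on the strain it was set against. Against ND5 alone, 32 members were lower (26.7% of all genes) and C3 higher (22.3%). Against CO1 alone, 19 were lower (18.2%). Against ND6 alone, 5 were lower, namely Ccr2 and the 4 class II genes. That share of the members was close to the 15.1% of all genes, so against ND6 the members were not called more often than other genes. Gpnmb was higher (15.8% of all genes). H2-Aa and Ccr2 differed from ND6 by -1.43 ± 0.41, adjusted p = 0.00592 and -1.95 ± 0.64, adjusted p = 0.0168 on the log2 scale, and Gpnmb by 0.68 ± 0.27, adjusted p = 0.0451. The 3 comparisons share their ANT1 libraries. Not 1 member had all 6 ANT1 libraries below all 18 others at rest, where 3.34% of all genes did.

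Other genes of the same pathways were read in the same comparison, in which 25.4% of all genes were lower. Of 27 further genes of myeloid signalling tested, 17 were lower and 0 higher, with a median of -0.97. Of 14 resident macrophage markers 6 were lower (median -0.59), as were 5 of 10 other chemokine genes. Both monocyte markers tested were lower too, but these are Vcan and Ccr2, and Ccr2 is itself a member. Of 17 genes of lysosomes and phagocytosis 7 were lower and 6 higher. Their sum was higher in ANT1, at 5683 to 6472 CPM against 3774 to 5462 CPM. Most of that sum was 1 gene, Lpl (lipoprotein lipase), with a median of 3170 CPM over the soleus libraries, where the next, Ctsd, had 470.7. Of 5 dendritic cell markers 2 were lower and 1 higher. Of 7 other genes of the class II pathway, 4 were lower, and of 13 other complement genes, 5 (medians -0.45 and -0.27). Of 12 genes of the class I pathway, by which nearly all cells display peptides, 1 was lower, with a median of -0.01. Other cell types moved with the members in the same comparison. Lower in ANT1 were 8 of 10 fibroblast markers, 7 of 7 tendon markers, 5 of 6 genes of muscle regeneration and 3 of 6 proliferation genes. Of the atrial list, Sln, Myl4, Dkk3 and Gja5 could be tested, and 3 of these 4 were lower. They do not mark atrial cells here, since the atrial gene Myl7 was at 0 in 47 of 48 soleus libraries. Myl4 is also counted among the regeneration genes. The summed fibroblast markers ran from 502 to 1111 CPM in ANT1 and from 595 to 2854 CPM in the mtDNA strains. All 5 erythroid markers and 3 of 7 endothelial markers tested were higher. The part of these in the members' difference was not tested.

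Myh3, the embryonic myosin heavy chain of regenerating fibres, varied widely between soleus libraries of the mtDNA strains. It lay between 13.7 and 42.8 CPM in ANT1 at rest and between 30.04 and 1924 CPM in the mtDNA strains. Libraries above 200 CPM, a limit chosen after these values were seen, were left out in a second fit, which kept 2 of 6 ND5, 4 of 6 CO1 and all 6 ND6 and ANT1 libraries at rest. In that fit 18 members were lower in ANT1 at rest, against 18.2% of all genes, and 1 was higher, Gpnmb at 0.62, while C3, at 0.49, no longer passed. The median over the members was -0.71.

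In trained soleus, in other libraries, 32 members were lower in ANT1 (22.4% of all genes) and C3 was higher (21.1%). The median over the members was -1.63. Of those tested, only Gpnmb did not pass, with 3.92 to 7.56 CPM (median 4.58) in ANT1 and 2.65 to 8.49 CPM (median 4.33) in the mtDNA strains (0.08 ± 0.22, adjusted p = 0.797). For 8 members, all 6 ANT1 libraries were below all 18 others in CPM, as for 3.36% of all genes: Ptprc, Itgam, Ccr2, Ctss and the 4 class II genes. In the deposited FPKM Itgam overlapped, at 0.05 to 1.38 in ANT1 and 0.35 to 6.17 in the mtDNA strains, and the rest of these members stayed apart. Cd74 had 4.08 to 12.5 CPM (median 10.5) in ANT1 and 12.7 to 68.7 CPM (median 38.1) in the mtDNA strains, a log2 difference of -2.06 ± 0.33, adjusted p = 1.77e-06. H2-Eb1 had 2.73 to 3.93 CPM (median 3.19) in ANT1 and 6.01 to 30.2 CPM (median 16.4) in the mtDNA strains (-2.4 ± 0.37, adjusted p = 6.7e-07). These were separations without overlap, in which the highest ANT1 library stayed under the lowest of 18. Ccr2 had 0.245 to 1.53 CPM (median 0.818) in ANT1 and 1.61 to 42.99 CPM (median 5.03) in the mtDNA strains (-3.11 ± 0.55, adjusted p = 9.94e-06), and Itgam had 0.3397 to 1.22 CPM (median 0.541) in ANT1 and 1.395 to 24.9 CPM (median 2.88) in the mtDNA strains (-2.51 ± 0.49, adjusted p = 4.18e-05). Ptprc had 0.595 to 1.11 CPM (median 0.857) in ANT1 and 1.47 to 10.3 CPM (median 3.12) in the mtDNA strains (-2.12 ± 0.37, adjusted p = 8.27e-06), and Ctss had 1.53 to 3.14 CPM (median 2.08) in ANT1 and 3.23 to 23.3 CPM (median 8.32) in the mtDNA strains (-2.17 ± 0.43, adjusted p = 6.98e-05). The top value of Ccr2, Itgam and Ptprc among the mtDNA strains belonged to a single library, B69.

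Other trained members came close to separation. ANT1 libraries held 15.3 to 23.02 CPM (median 20.7) and mtDNA-strain libraries 22.6 to 123 CPM (median 59.9) for Lyz2 (-1.7 ± 0.32, adjusted p = 3.39e-05), with 1 mtDNA-strain library, CO1 E76, below the highest of ANT1. C1qa had 3.27 to 7.85 CPM (median 5.44) in ANT1 and 5.87 to 19.6 CPM (median 10.8) in the mtDNA strains (-1.1 ± 0.3, adjusted p = 0.00245), and Tyrobp, not called at rest, had 0.3398 to 1.27 CPM (median 0.648) in ANT1 and 0.751 to 8.88 CPM (median 2.05) in the mtDNA strains (-1.67 ± 0.42, adjusted p = 0.00105). Trem2 had 0 to 0.3398 CPM (median 0.112) in ANT1 and 0.2201 to 4.02 CPM (median 1.01) in the mtDNA strains (-3.05 ± 0.62, adjusted p = 9.13e-05), so its difference rests on ANT1 libraries at or near 0. C3 had 15.2 to 27.7 CPM (median 20.8) in ANT1 and 5.75 to 26.8 CPM (median 13.1) in the mtDNA strains (0.61 ± 0.22, adjusted p = 0.022), with ranges that overlapped widely, and its difference was 0.07 when scaled by library totals. Against ND5, ND6 and CO1 alone, 32, 29 and 23 members were lower in trained ANT1 soleus, against 20.6%, 17% and 15% of all genes, and C3 was higher against ND6 (16.8%). Other genes moved in trained soleus as well. There 22 of 27 further genes of myeloid signalling, 6 of 7 of the class II pathway and 7 of 14 resident macrophage markers were lower. Both monocyte markers tested, Vcan and the member Ccr2, were lower too. So were 8 of 10 fibroblast markers, 3 of 7 tendon markers, 4 of 6 regeneration genes and 2 of 6 proliferation genes, and 4 of 5 erythroid markers were higher. The fibroblast markers summed to 636.4 to 914.7 CPM in ANT1 and 536.6 to 2064 CPM in the mtDNA strains, and Myh3 lay at 10.03 to 31.66 and 17.87 to 1462 CPM. Their part in the members' difference was not tested. Without the libraries above 200 CPM of Myh3, 30 were lower (18.1%) and C3 higher, with a median of -1.37. The trained difference minus that at rest was called for 0 members by edgeR (0% of all genes). At an unadjusted p under 0.05 the number was 1, so a larger difference in trained mice was not shown. In heart the same contrast also called 0 members (0% of all genes), with 0 at an unadjusted p under 0.05.

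**Figure D3:**
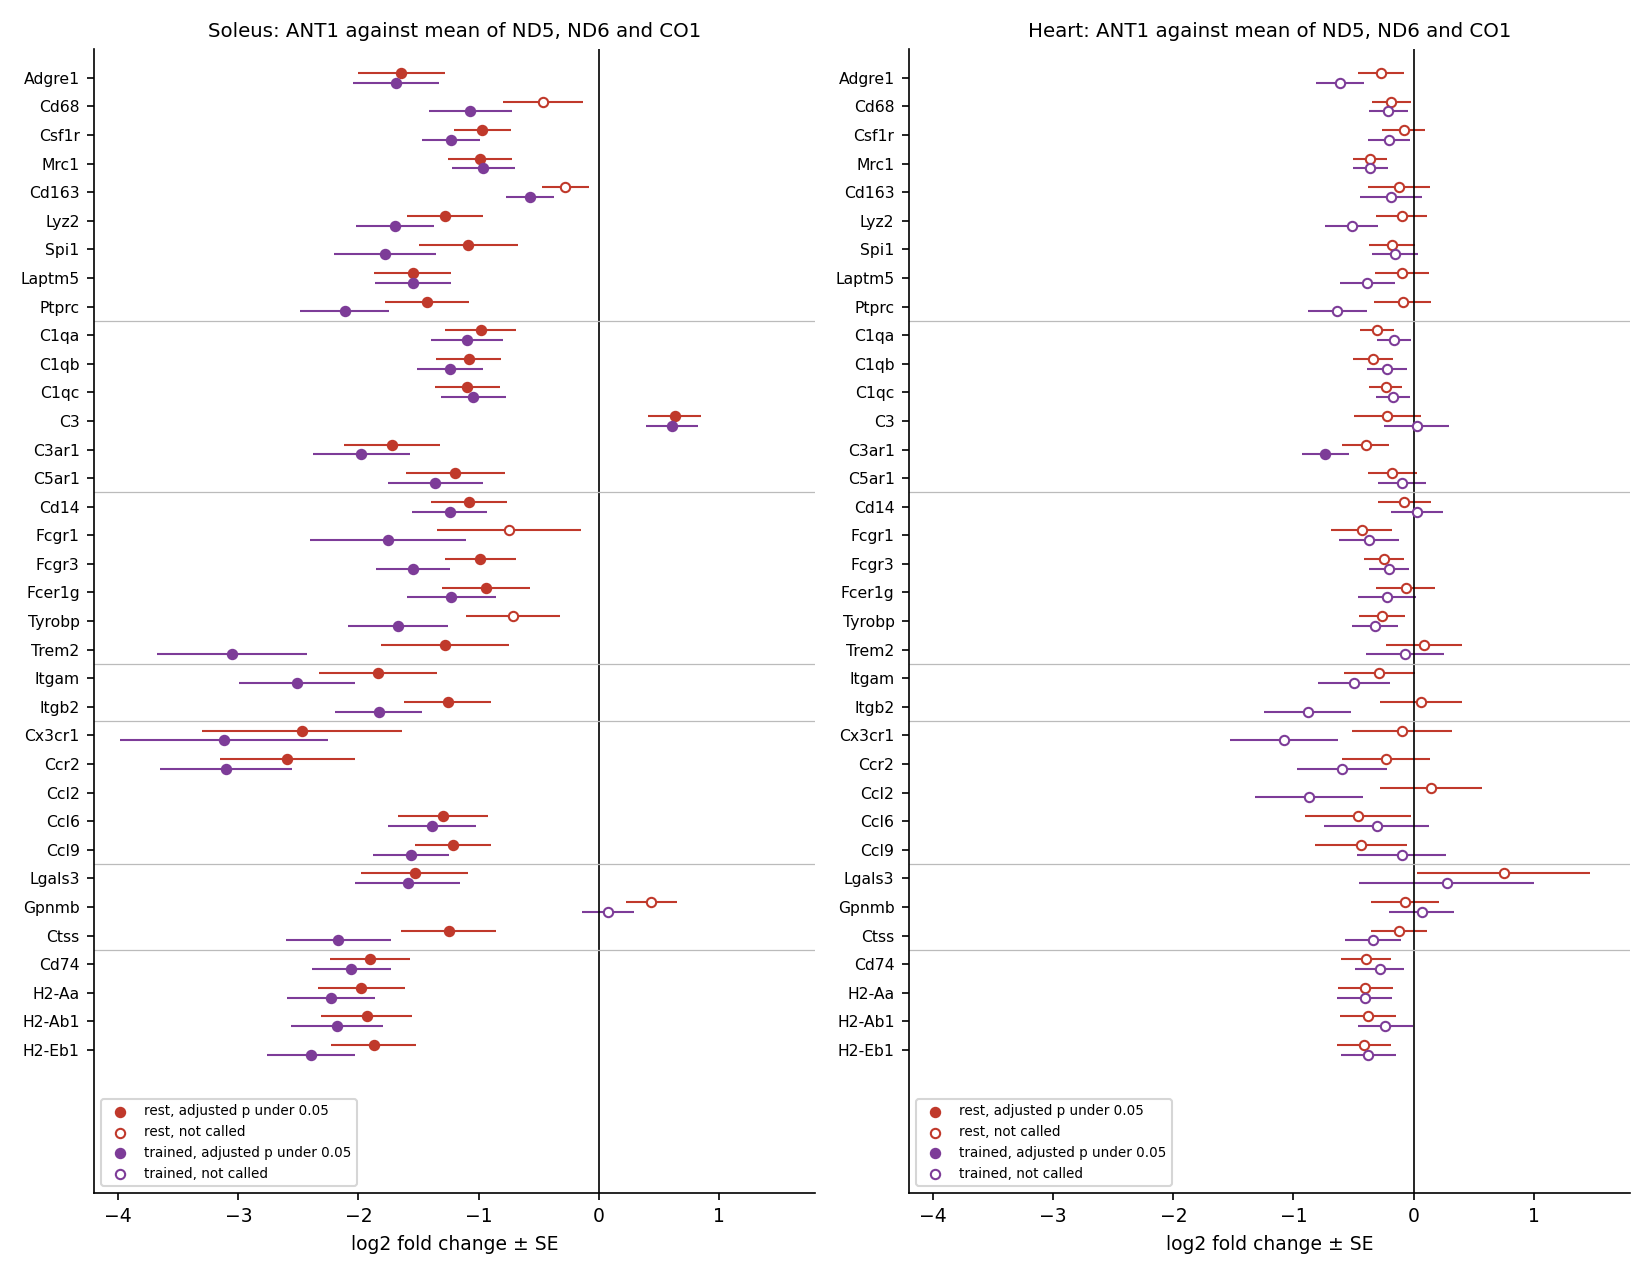
Log2 fold change ± SE of each member in ANT1 against the mean of ND5, ND6 and CO1, in soleus (left) and heart (right), at rest (red) and trained (purple), with filled points at an adjusted p under 0.05 by edgeR. Almost all soleus points lie left of 0, C3 lies right of it at 0.63 and 0.61 (-0.03 and 0.07 when scaled by library totals), and in heart only the trained point of C3ar1 is filled.

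Among the mtDNA strains at rest, soleus members were highest in ND5. Against ND6, 30 of 34 members were higher in ND5, where 9.97% of all genes were, with a median log2 difference of 1.38 (0.00 over all genes). For Lyz2, ND5 libraries held 62.9 to 172 CPM (median 97.8) and ND6 libraries 13.2 to 54.5 CPM (median 44.9) (1.44 ± 0.35, adjusted p = 0.00671). All 6 ND5 libraries were above all 6 ND6 libraries. The same separation held for Adgre1, Mrc1, C1qb, Fcgr1, Fcgr3 and Ctss, so for 7 members, and for 1.39% of all genes. Adgre1 held 3.65 to 8.62 CPM (median 5.401) in ND5 and 0.874 to 2.41 CPM (median 2.02) in ND6 (1.64 ± 0.35, adjusted p = 0.00384). For Ctss the values were 9.11 to 35.3 CPM (median 14.97) and 1.66 to 7.396 CPM (median 5.68) (1.91 ± 0.42, adjusted p = 0.00422). C1qb held 10.9 to 32.3 CPM (median 17.9) and 2.25 to 9.24 CPM (median 7.46) (1.51 ± 0.3, adjusted p = 0.00292).

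The largest fitted differences between ND5 and ND6 were in receptors with low counts. Cx3cr1 held 0.357 to 4.21 CPM (median 1.44) in ND5 and 0.0509 to 0.804 CPM (median 0.291) in ND6 (2.76 ± 0.67, adjusted p = 0.00628), and Trem2 0.974 to 4.91 CPM (median 2.05) and 0.102 to 1.12 CPM (median 0.314) (2.66 ± 0.53, adjusted p = 0.00292). Both overlapped between the strains. The 4 class II genes were higher in ND5 by 1.2 to 1.34, with Cd74 at 21.98 to 86.8 CPM (median 55.7) and 8.83 to 41.2 CPM (median 25.3). The 4 members not called were Cd68 (0.91 ± 0.38, adjusted p = 0.0921), Cd163 (0.5 ± 0.23, adjusted p = 0.122), Gpnmb (0.64 ± 0.26, adjusted p = 0.086) and C3 (-0.3 ± 0.28, adjusted p = 0.504). C3 was the one member with a negative value.

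Regeneration moved with the members here. All 6 regeneration and all 6 proliferation genes tested were higher in ND5 than in ND6, as were 4 of 10 fibroblast markers. Myh3 held 46.5 to 1924 CPM (median 547.4) in ND5 and 36.5 to 145.4 CPM (53.4) in ND6. Without the libraries above 200 CPM of Myh3, only 2 ND5 libraries were left, and 0 members were called (0% of all genes) with a median of 0.69. Leaving out ND5 B70 alone brought the number called from 30 to 13 (3.15% of all genes). The part of regenerating fibres in the difference was not tested.

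Against CO1, 33 of 34 members had a higher fitted value in ND5, with a median of 0.99, but 0 passed in edgeR (0% of all genes). At an unadjusted p under 0.05 there were 29 (22.1% of all genes). DESeq2 called 5 higher (1.89% of all genes) and limma voom with sample weights 21 (4.08%). EdgeR called 20 once ND5 B10 was left out (12.0%) and 13 when scaled by library totals (5.15%). The nearest to the threshold was C1qb (1.01 ± 0.29, adjusted p = 0.0653). Between ND6 and CO1, 0 members were called by edgeR (0%), DESeq2 or limma voom, with 0 at an unadjusted p under 0.05.

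**Figure D4:**
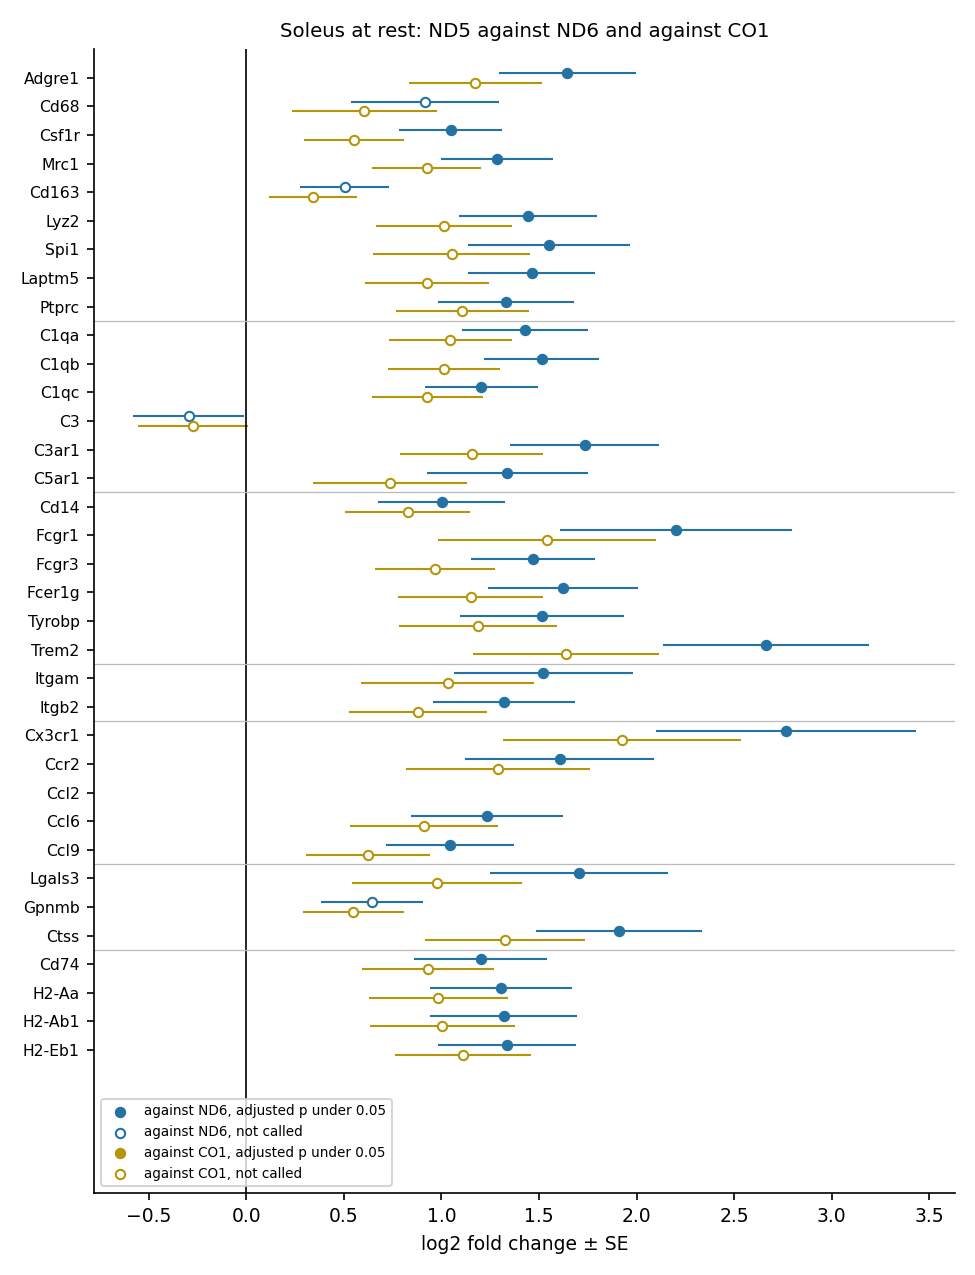
Log2 fold change ± SE of each member in ND5 soleus at rest against ND6 (blue) and against CO1 (yellow), with filled points at an adjusted p under 0.05 by edgeR. All points except those of C3 lie right of 0, those against ND6 farther right than those against CO1 for all of these members, and 30 of the former and 0 of the latter are filled.

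Training did not bring any member past the threshold in either tissue. Averaged over strains, 0 of 34 soleus members and 0 of 35 heart members were called by edgeR (0% of all genes in each), 0 had an unadjusted p under 0.05, and DESeq2 and limma voom called 0. The medians were 0.06 in soleus and 0.05 in heart. Within single strains edgeR called 0 members as well, with 0% of all genes in each strain and tissue, and from 0 to 11 members had an unadjusted p under 0.05. In ND6 soleus 33 of 34 members had a positive value (52.3% of all genes), with a median of 0.63, and 11 had an unadjusted p under 0.05 (4.94% of all genes). In ND5 soleus 23 of 34 had a negative value (50% of all genes), with a median of -0.24. Summed members in ND6 soleus ran from 77.98 to 320.6 CPM at rest and from 205.0 to 518.1 CPM after training, with ranges that overlapped. In ND6 heart the summed members ran from 617.8 to 1407 CPM at rest and from 744.6 to 1522 CPM after training, and limma voom with sample weights called 6 members (24.4% of all genes) where edgeR and DESeq2 called 0. A test for any difference between strains in the training response called 0 members by edgeR in soleus (lowest adjusted p 0.472, 5 at an unadjusted p under 0.05) and 0 in heart. Among trained soleus mice, responders and non-responders, 3 and 3 per strain as the labels class them, differed in 0 members by edgeR averaged over strains (0% of all genes), with 0 at an unadjusted p under 0.05 (4.49% of all genes) and 0 by DESeq2 or limma voom. Within single strains edgeR called 0 members too. At an unadjusted p under 0.05 ANT1 had 1 member (4.29% of all genes), ND5 had 6 (8.99%), ND6 had 0 (2.75%) and CO1 had 5 (2.41%). The 5 in CO1, all lower in responders, were the 4 class II genes and Cx3cr1, and the 6 in ND5, all higher, were Itgam, Ccr2, Cd68, Spi1, Itgb2 and Ccl9. All 6 of the latter had their top value of 48 in 1 responder library, B69, described below.

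Heart held more of most members than soleus. Over all groups, 31 of 35 members were lower in soleus (46.3% of all genes) and 2 were higher (40.5%), Gpnmb by 1.24 ± 0.11, adjusted p = 2.61e-18 and Ccr2 by 0.44 ± 0.18, adjusted p = 0.0164. The widest gap was that of C3, at -4.12 ± 0.13, adjusted p = 5.99e-48. In resting ND6 mice, C3 held 5.34 to 23.9 CPM (median 11.8) in soleus and 167 to 444 CPM (median 228) in heart. Lgals3 and Cd68 did not pass (-0.43 ± 0.27, adjusted p = 0.118 and 0.21 ± 0.11, adjusted p = 0.0583).

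In heart, ANT1 did not stand apart. At rest the summed members ran from 563.9 to 1068 CPM in ANT1 (median 698.0), and from 434.8 to 944.5 (678.7) in CO1, 659.8 to 1588 (944.4) in ND5 and 617.8 to 1407 (758.8) in ND6. The ranges of all 4 strains overlapped, and 0 of 35 members were called in ANT1 by edgeR (0.916% of all genes). At an unadjusted p under 0.05 there were 3 (11.6% of all genes), DESeq2 called 0 and limma voom 1 (5.69% of all genes). Cd74 held 35.8 to 71.97 CPM (median 54.4) in ANT1 and 20.1 to 125 CPM (median 72.05) in the mtDNA strains (-0.4 ± 0.21, adjusted p = 0.473), and Lyz2 77.6 to 166 CPM (median 103) and 57.7 to 209 CPM (median 114) (-0.1 ± 0.21, adjusted p = 0.895). In trained heart the receptor C3ar1 was lower, the only member called (1.32% of all genes were lower). It held 2.34 to 5.27 CPM (median 3.297) in ANT1 and 3.6 to 8.42 CPM (median 5.64) in the mtDNA strains, with overlap (-0.74 ± 0.2, adjusted p = 0.0221). The call was lost when any of 4 of the 24 libraries was left out, with adjusted p-values from 0.00989 to 0.0864. Scaled by library totals, 5 members were lower in trained ANT1 heart (10.1% of all genes) and 1 at rest (8.75%), where the median of all genes was -0.26 and -0.27. The hearts differed widely in the atrial gene Myl7. At rest it ran from 2.61 to 1716 CPM in ANT1 and from 0.966 to 2223 CPM in the mtDNA strains. The ANT1 heart with 1716 CPM, A80, was also the one with the highest summed members, 1068 CPM. The part of atrial tissue in the comparison of ANT1 hearts was not tested.

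ND5 and CO1 hearts at rest differed in 4 members, all higher in ND5, a share of the members close to the 9.27% of all genes that were higher. Mrc1 held 18.7 to 46.3 CPM (median 34.1) in ND5 and 16.4 to 27.7 CPM (median 21.1) in CO1 (0.64 ± 0.17, adjusted p = 0.0191). Gpnmb held 1.14 to 7.05 CPM (median 2.54) and 1.09 to 1.49 CPM (median 1.29) (1.34 ± 0.34, adjusted p = 0.0148). Ccr2 held 1.304 to 7.45 CPM (median 3.22) and 0.97 to 2.11 CPM (median 1.77) (1.39 ± 0.45, adjusted p = 0.0398), and Itgam 3.74 to 12.3 CPM (median 8.46) and 2.15 to 5.11 CPM (median 3.99) (1.11 ± 0.36, adjusted p = 0.0393). The groups overlapped for each. Scaled by library totals 15 were higher (23.6% of all genes), with the median of all genes at 0.34. Without ND5 B80, the mouse with conflicting labels, 0 of these calls remained. Tissue markers moved with them: the atrial myosin light chain Myl7 held 1.42 to 1671 CPM (median 329.0) in ND5 and 0.97 to 31.6 CPM (1.26) in CO1. In the same order, 7 adipocyte markers summed to 1.46 to 2189 CPM (83.5) and 1.11 to 8.57 CPM (1.33). The sum of 2189 CPM was that of B80. Its heart library held 629.1 CPM of Actc1, cardiac actin, against 2344 to 11610 CPM in the other hearts. Its erythroid markers summed to 116200 CPM, where all hearts ran from 774.5 to 131900 CPM. Without the hearts above 20 CPM of Myl7, a limit chosen after the values were seen, 2 ND5 and 5 CO1 libraries were left and 0 members were called. Their part in the difference was not tested. ND5 against ND6 and ND6 against CO1 gave 0 called members in heart by edgeR (0% and 0% of all genes), DESeq2 and limma voom, with 1 and 7 at an unadjusted p under 0.05.

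The difference of ANT1 from the mtDNA strains was then compared between the tissues. At rest 12 members had a lower ANT1 difference in soleus than in heart at an adjusted p under 0.05 by edgeR, where 5.58% of all genes did. They were the 4 class II genes, Ccr2, Laptm5, Adgre1, Ptprc, C3ar1, Lyz2, Csf1r and C1qc. Ccr2 differed by -2.34 ± 0.62, adjusted p = 0.00725, Cd74 by -1.47 ± 0.36, adjusted p = 0.00345 and C1qc, the weakest of the 12, by -0.83 ± 0.29, adjusted p = 0.049. In trained mice 17 members did by edgeR (5.16% of all genes), with Trem2 at -2.97 ± 0.67, adjusted p = 0.0015. The other fits given next were run at rest only, so the trained count was not checked in them. Because 19 mouse codes occur in both tissues, the fit was repeated in limma voom with the mouse as a block. That fit called 1 member at rest (3.45% of all genes were lower), with a median of -0.98 over the members, equal to that of the edgeR fit, and limma voom without the block and without weights also called 1 (3.44%). DESeq2 and limma voom with sample weights each called 14 (5.89% and 7.8% of all genes were lower). EdgeR scaled by library totals called 26 (32.7% lower, with the median of all genes at -0.41), and edgeR called 7 without heart A80 of the ANT1 group (7.53% of all genes called). The number called thus ran from 1 to 26 over these fits, with medians over the members from -0.98 to -1.38. The part of the wide range of Myl7 between hearts in this difference was not tested.

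Most members varied with Csf1r across the soleus libraries of a group. Taking log2(CPM + 1) as deviations from the mean of each group, 32 of 33 members correlated with Csf1r over 48 libraries at an adjusted p under 0.05 (permutation test, adjusted over the 33). Their lowest r was 0.330, which 18.4% of all genes tested reached as well. The median r was 0.731 over the members and -0.002 over all genes. The closest was C1qa, with Pearson's r = 0.888 and Spearman's rho = 0.864 (p = 1e-05 for each, the smallest that 100000 permutations can give). Without the 2 libraries farthest from the median of Csf1r, r was 0.862. H2-Ab1, C1qc and Fcgr3 followed at 0.870, 0.870 and 0.861. Ccr2 was looser, at r = 0.592, and Fcgr1 looser still, at 0.330. C3 was the exception, at r = 0.135 (rho = 0.136, permutation p = 0.43, and 0.0658 without the 2 farthest libraries). In heart 30 of 34 members passed, with r from 0.392 up, as 26.7% of all genes had, and medians of 0.585 over the members and 0.093 over all genes. There C3 was among the closest, at r = 0.834 (rho = 0.819, permutation p = 1e-05). Myl7 ran from 0.961 to 3230 CPM over the hearts, and its part in these correlations was not tested. The libraries share their scaling, and the values are a description of how members vary within groups.

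Soleus library B69 of the trained ND5 group held a different mix of members. It was the highest of 48 libraries for 14 of them: Cd68, Spi1, Ptprc, C3ar1, C5ar1, Fcgr1, Fcer1g, Tyrobp, Itgam, Itgb2, Ccr2, Ccl2, Ccl6 and Ccl9. Ccl2 stood at 33.6 CPM there and at most 1.14 CPM in the other 47 libraries. Ccr2 stood at 42.99 CPM (at most 13.4 elsewhere), Itgam at 24.9 (8.85) and Ccl9 at 27.4 (11.5). The monocyte receptor Ccr2 and the chemokines Ccl2, Ccl6 and Ccl9 were thus at their top in this library, and the markers of resident macrophages were mixed. Mrc1 was at 18.91 CPM, the second highest of 48 and above the 8.661 to 10.22 CPM of the other 5 libraries of its group. The 16 resident macrophage markers summed to 93.02 CPM, within the 92.86 to 119.1 CPM of that group. Cd163 was at 4.74 CPM, below the 8.55 to 10.8 CPM of the other 5, and C1qa was at 9.75 CPM against 10.9 to 19.6. Cd74, at 50.4 CPM, lay within its group (34.2 to 68.7). The 7 monocyte markers, Ccr2 among them, summed to 84.95 CPM (at most 51.6 elsewhere) and the 10 neutrophil markers to 11.9 CPM (at most 1.60). Of the neutrophil markers 5 had their top value in B69: the granulocyte receptor Csf3r at 5.939 CPM (at most 1.141 elsewhere), S100a9 at 3.869 (0.2253), S100a8 at 1.689 (0.2584), Mmp8 at 0.2725 (0.1787) and Retnlg at 0.1635 (0.1502). Ly6g, Ngp, Camp and Ltf were at 0 in B69, and Mpo was at 0 in all 48 libraries. The fibroblast markers summed to 536.6 CPM, the lowest but 1 of 48. Without B69, 32 members were lower in trained ANT1 soleus and C3 higher, as with it. The part of the neutrophil and monocyte markers in the values of B69 was not tested.

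**Figure D5:**
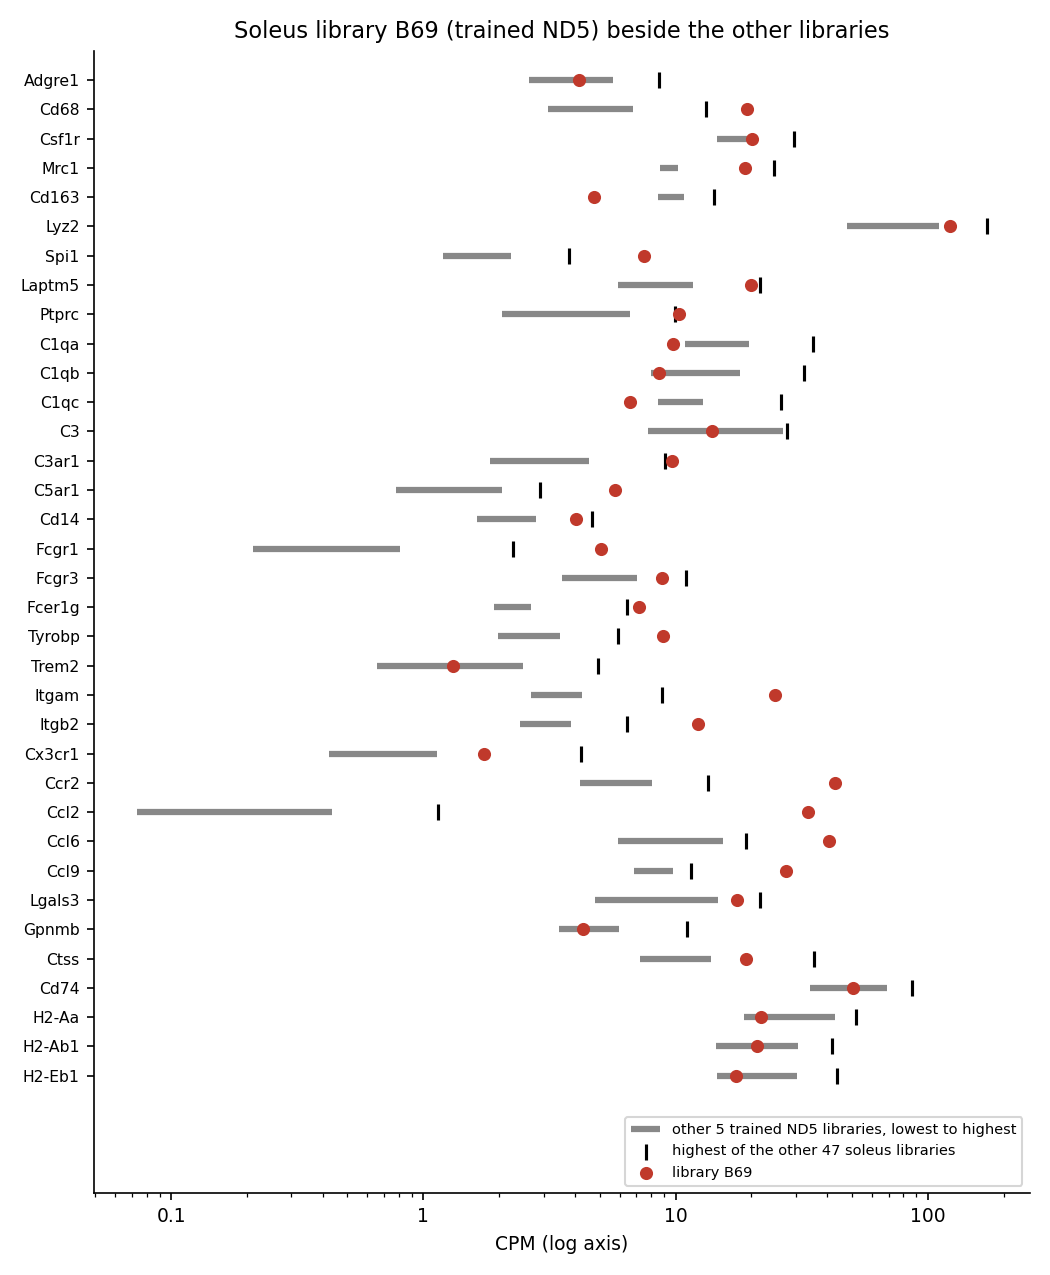
CPM of each member (log axis) in soleus library B69 (red points), beside the lowest-to-highest range of the other 5 trained ND5 libraries (grey bars) and the highest of the other 47 soleus libraries (black ticks). Points right of the tick mark the 14 members with their top value in B69, such as Ccl2 at 33.6, and Cd163, C1qa and C1qc lie left of the grey bar.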

How the data were processed

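The deposited tables hold, for each tissue, RSEM expected counts and FPKM per gene, made by the authors from paired-end libraries of oligo(dT)-selected RNA. The submitters' processing notes name STAR 2.5.2b, RSEM 1.2.28 and build mm10. Roles of these tools are not given in the sources used here, nor is the strand setting, so reads of overlapping genes cannot be told apart. The deposited expected counts (6.68% not whole in heart, 5.82% in soleus) were rounded, filtered with filterByExpr (13935 genes kept in soleus, 15723 in heart), scaled by TMM and tested with edgeR 4.0.16 (R 4.3.3; quasi-likelihood F test, 1 mean per group, Benjamini-Hochberg adjustment over all genes tested, threshold 0.05). Fold changes are log2, with SE from the F statistic. Levels between libraries are CPM. Levels between genes use the authors' FPKM, as deposited. Alternatives used DESeq2 1.42.0, limma 3.58.1, other filters and scalings, and leaving out each library. In 24 columns of the counts tables no sample of the labels could be matched, and they were not used.

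The members and gene lists were chosen with earlier results of these data known. All members are named by role, with library values for those called in a comparison or highest in their role by FPKM, and other genes only where a result turns on them. Where nothing says that libraries come from separate litters or days, p-values measure only the spread between these mice. The fit was tested on simulated counts for ANT1 against the mtDNA strains in soleus at rest, over 13935 genes. It recovered 86% of 100 genes changed by log2 1 and 96% of 100 changed by log2 2, with 7 false calls among 13735. The simulated counts had the fit's own means and dispersions, and only these genes were changed, as many up as down. In the data 47.7% of all genes were called in this comparison, a setting the simulation does not cover. The mouse code is shared between soleus and heart for 19 mice and pairs no other groups. The consensus correlation of this block was 0.0376. The replicate numbers carry no pairing within a tissue.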

Additional observations from a re-analysis of the deposited data

Results flagged for a closer look

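The highest and lowest libraries of 72 groups of 6 were compared with their nearest neighbour, and 5 stood apart by Dixon's criterion, where chance alone gives about 1 group in 20. In soleus ANT1 at rest, C1qa of library A82 was at 12.99 CPM and the next at 5.74 CPM. In trained ND5 soleus, library B69 was apart for Ccl6 at 40.4 CPM (next 15.4), Tyrobp at 8.88 CPM (next 3.47) and Itgb2 at 12.31 CPM (next 3.85). In trained CO1 heart, the summed members of library E50 were at 1101 CPM and the next at 711.1 CPM. E50 also held 530.1 CPM of Myl7, against 0.96 to 1.86 CPM in the other trained CO1 hearts. Its adipocyte markers summed to 179.4 CPM, against 0.63 to 1.71 CPM. The part of these tissue markers in its sum was not tested.

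The difference of ANT1 from the mtDNA strains at rest differed between soleus and heart for 12 members by the interaction test in edgeR, lower in soleus for each, where 5.58% of all genes were lower. Limma voom with the mouse as a block called 1 member.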

How the results depend on the processing

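The number of members called in ANT1 soleus at rest was 25 to 29 with single libraries left out, and 32 to 34 in trained soleus. It was 19 without libraries over 200 CPM of Myh3, 6 against ND6 alone and 19 against CO1 alone. For ND5 against ND6 in soleus it was 13 (without ND5 B70) to 31, and 0 without the high Myh3 libraries. For ND5 against CO1 in soleus it was 5 by DESeq2, 21 by limma voom with sample weights and 0 to 20 (without ND5 B10) with single libraries left out. In ND5 soleus the training count was 0 to 1. ANT1 heart at rest gave 1 by limma voom, 1 against ND5 alone and 3 with both treatments pooled. Trained ANT1 heart gave 2 by DESeq2, 2 by limma voom, 0 against ND5 alone, 2 against ND6 alone, 0 against CO1 alone and 0 to 2 with single libraries left out. ND5 against CO1 heart gave 2 with no filter, 1 by limma voom, 0 without hearts over 20 CPM of Myl7, and 0 (without ND5 B80) to 9 (without ND5 B5). Training in ND6 heart gave 6 by limma voom. The soleus-minus-heart difference of ANT1 gave 1 without weights in limma voom, 1 with the mouse as a replicate block, and 7 (without heart ANT1 A80) to 14. The soleus against heart count was 33 to 34, and 32 with the replicate block. All other single-library counts were 0 to 0. Of 173 counts over the other settings, 25 moved by over 1.5 times, and the cause was not tested. Scaled by library totals without TMM (added after seeing the data), the counts were 13 for ND5 against CO1 soleus, 1 and 5 for ANT1 heart at rest and trained, 15 for ND5 against CO1 heart and 26 for the soleus-minus-heart difference. That scaling turned C3 (-0.0272) and Gpnmb (-0.227) in ANT1 soleus at rest and Gpnmb when trained (-0.462). Sign also changed for Gpnmb in trained ANT1 soleus (-0.0709 without ANT1 A43 and up to 0.148 without ANT1 A76), C3 for ND5 against ND6 (0.0274 without the high Myh3 libraries) and Gpnmb for ND5 against CO1 heart (-0.216 without the high Myl7 hearts).

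The Myh3 and Myl7 limits were chosen after seeing the data, and the Myl7 limit left no trained ND6 heart, so the trained comparison gave no value there. Single libraries were left out of the 2-tissue fit only at rest, and its trained contrast was run in the main edgeR fit alone. Genes under about 1 CPM rest on few counts.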
